A study of Mus musculus with 2 samples.

Results

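The cytosolic ribosomal protein genes, whose products build the large and the small subunit of the cytoplasmic ribosome, were followed through the cell classes of mouse lung cells profiled by droplet single-cell RNA sequencing. The members were chosen by symbol alone: Rpl or Rps followed by a number, with at most 1 closing letter a, x, y or l, together with Rplp0, Rplp1, Rplp2 and Rpsa. Pseudogene symbols ending in -ps and the Rps6k kinases were left out. The rule found 80 of the 32285 genes in the count table, 49 of the large subunit and 31 of the small subunit. Ribosome components with other symbols (Rps3a1, Fau, Rack1 and others) were outside the rule and were followed as a separate list.

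Lung cells were sorted as live CD45.2+ YFP+ cells from neonatal mice of 7 days and adult mice of 8 weeks. All mice carried zbtb46-cre and rosa26-yfp (strain label zbtb46-yfp), so a cell kept the YFP mark when it or an ancestor had expressed Zbtb46, a transcription factor of conventional dendritic cells (DC). There were 2 pools per age, each prepared separately from at least 5 mice. Within an age, a hashtag antibody told the 2 pools apart, and both were loaded in the same channel, so age and loading channel cannot be told apart.

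Each ribosome carries 1 copy of nearly every ribosomal protein, and the mRNAs of these proteins are among the most abundant in most cell types. They typically begin with a run of pyrimidines, the 5′ terminal oligopyrimidine (TOP) motif, through which growth signalling by mTOR controls their translation. In DC, maturation reorganises protein synthesis along with antigen presentation and migration. The values below are mRNA counts and say nothing of ribosome number or protein.

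Before filtering, the pools held from 8172362 to 20346024 gene UMIs (unique molecular identifiers, each counting 1 captured mRNA). After filtering, 12740 cells remained, between 1854 and 4444 per pool, with a median of 3052 to 3721.5 UMIs per cell. Although the sort was labelled as DC, clustering without the member genes separated 10 classes with at least 20 cells in every pool. These were named from marker genes, so that each name stands for "like" that type: cDC1 (leading genes Xcr1, Clec9a, Cadm1), cDC2, mature DC (Ccr7, Fscn1), classical and nonclassical monocytes, macrophages, neutrophils, natural killer (NK) cells (Gzma, Nkg7), T cells, and mast cells or basophils. Cells in clusters without a name made up 8.75% of neonatal and 8.06% of adult cells. Xist stood at 708 and 603 CPM in neonatal pools against 0.235 and 0.129 CPM in adult ones, and Ddx3y at 0.523 and 11.8 against 69.7 and 76.6 CPM, so age and the sex make-up of the pools cannot be told apart either. Barcodes shared between the ages came to 14. Pools of 1 age shared 0, which follows from the hashtag split of 1 channel and is no check of the pools.

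Over all kept cells the members held 9541610 of 53850298 gene UMIs, or 17.7%, while they were 0.401% of the 19692 genes with a UMI. Of the 80 members, 79 had a UMI and 71 stood above 1000 CPM (the UMIs of a gene over all gene UMIs of the cells summed, in the usual CPM scale), and the median member stood at 2127 CPM. Because the 3′ kit counts each mRNA once whatever its length, transcript length does not enter these levels. How reads shared with near-identical copies and pseudogenes were counted is not given in the sources used here, so the order of members by level is uncertain to that extent. Rpl13 was highest with 257010 UMIs (4773 CPM, in 92.5% of cells), followed by Rps24 with 245105, Rps9 with 220745, Rps27a with 210420 and Rpl19 with 200433 UMIs. The lowest were 3 paralogs known from other tissues, the testis genes Rpl10l with 0 UMIs and Rpl39l with 86 and the muscle gene Rpl3l with 420, then the p53-induced paralog Rps27l with 17365 and Rpl31 with 33900. The 10 highest members held 21.8% of the member UMIs, so no few genes dominated the total.

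The share of UMIs held by the members differed more between cell classes than between ages. T cells were highest, at 31.3% and 29.7% in neonatal pools 1 and 2 and 36.3% and 35.5% in adult pools 1 and 2. Neutrophils, short-lived granulocytes, were lowest at 3.35%, 3.33%, 3.95% and 3.91%. In cDC1, the cross-presenting DC, the share was 22.1%, 22.4%, 22.4% and 22.1%. The T cell and neutrophil values lay far apart in every pool, and the cDC1 values of the ages overlapped.

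Compared within each pool, cDC1 lay above cDC2 by 1.42 percentage points on average over the 4 pools, above classical monocytes by 3.95, above proliferating cDC1 by 4.90, above mature DC by 6.64, above nonclassical monocytes by 7.62 and above neutrophils by 18.6, each time in 4 of 4 pools. The exact two-sided sign-flip test of each of these 6 pairs gave p = 0.125, the smallest that 4 pairs allow, and 0.146 after Benjamini-Hochberg adjustment over the 7 pairs compared. Proliferating cDC1 had only 4 and 6 cells in the adult pools. The seventh pair, cDC1 minus NK cells, had no common direction: the difference was -0.259 and -0.974 points in the neonatal pools and 4.96 and 4.32 in the adult pools (mean 2.01, exact p = 0.5).

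Between the ages, the share was lower in neonatal than in adult pools in 6 of the 10 classes, and pools did not overlap in these. Mature DC had 12.9% and 13.5% in the neonatal pools against 18.4% and 17.6% in the adult pools, a difference of -4.81 points. In nonclassical monocytes the values were 13.1% and 13.4% against 15.96% and 15.996% (-2.71 points), and in classical monocytes 17.2% and 17.2% against 19.3% and 19.5% (-2.19 points). The cDC2 values were 20.1% and 20.3% against 21.5% and 21.3% (-1.17 points). T cells differed by -5.41 points and neutrophils by -0.594 points on the values already given; with predicted doublets kept, which redraws the clusters, these became -1.18 and -0.329 points.

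NK cells went the other way, with 22.3% and 23.4% in the neonatal pools against 17.4% and 17.8% in the adult pools (5.27 points), as did mast cells or basophils with 19.3% and 19.6% against 16.97% and 16.6% (2.66 points). Neither overlapped between ages. Macrophages had 16.8% and 17.8% against 15.7% and 16.8%, a difference of 1.05 points that ran from 0.498 without adult pool 1 and 0.564 without neonatal pool 2 to 1.60 without adult pool 2. The cDC1 difference was 0.00991 points (exact p = 1), and it became -0.182 without neonatal pool 2, -0.148 without adult pool 2, and 0.645 as a mean over single cells. Inside the clusters of cDC1, which held different parts of the 2 ages, the mean share was lower in neonatal pools. It was 22.5% and 23.0% against 24.8% and 25.1% in cluster 0 (23 and 20 adult cells, without overlap). In cluster 12 it was 21.1% and 21.6% against 23.8% and 20.6% (32 and 29 adult cells), and in cluster 13 22.1% and 20.5% (34 neonatal cells in each pool) against 21.9% and 21.9%, both with overlap. With 2 pools against 2 the two-sided exact permutation test cannot go below p = 0.333, so none of these shares could reach 0.05.

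**Figure D1:**
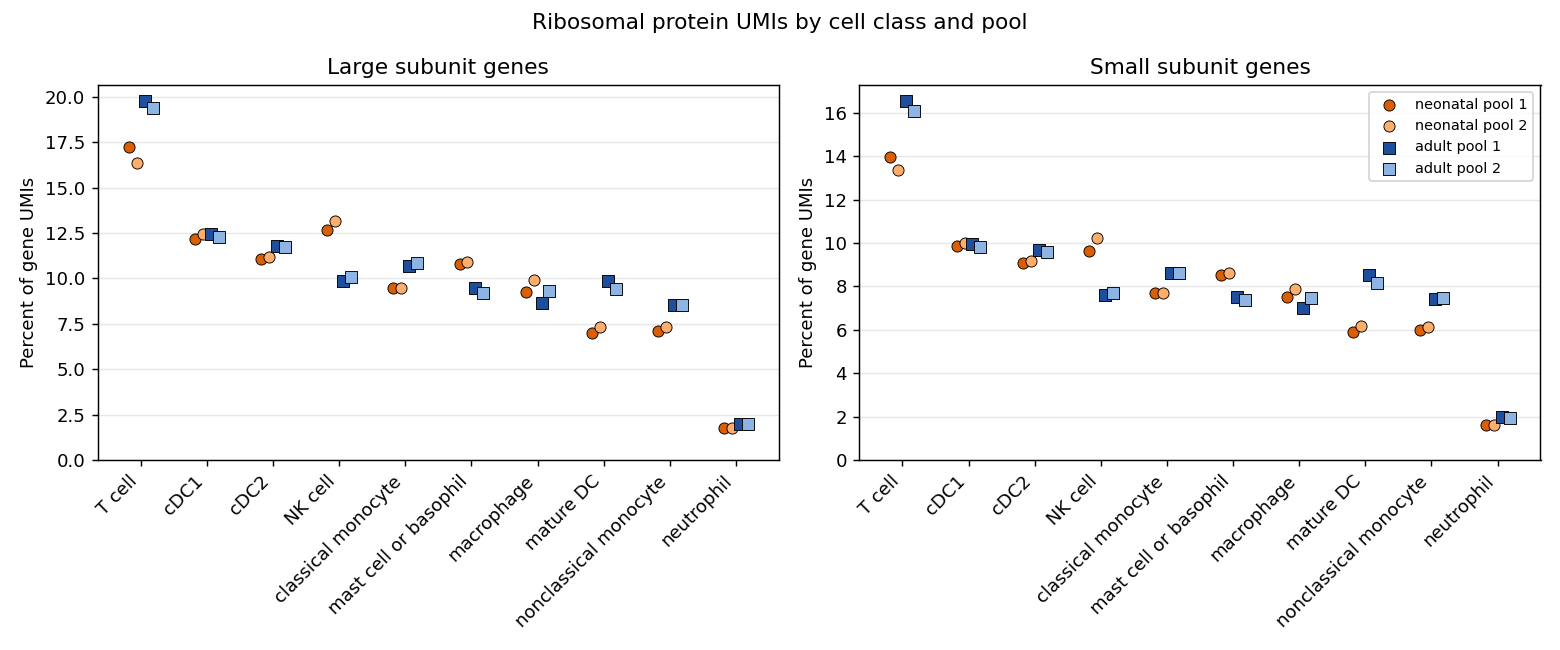
Percent of gene UMIs held by the ribosomal protein genes of the large (left) and small (right) subunit in each cell class, with 1 point per pool and ages told apart by colour. Neutrophils lie at the bottom (large subunit 1.73% to 1.99%), T cells at the top (16.4% to 19.8%), and the 4 cDC1 points lie together (12.2% to 12.4%).

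Between the ages, large and small subunit shares shifted in the same direction in every class tested except cDC1, where the ages overlapped in both. Their ratio shifted a little in most classes, up in some and down in others. In cDC1 the large subunit held 12.2%, 12.4%, 12.4% and 12.3% and the small subunit 9.85%, 10.0%, 9.94% and 9.82% of UMIs in the 4 pools. The ratio of large to small subunit UMIs was 1.24 in both neonatal and 1.25 in both adult pools of cDC1. In mature DC it was 1.19 in both neonatal and 1.15 in both adult pools, and in neutrophils 1.09 and 1.09 against 1.01 and 1.02.

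Gene by gene, cDC1 of the 2 ages differed although their total shares overlapped. Of 77 members tested, 9 were higher and 37 lower in neonatal cDC1 (edgeR quasi-likelihood test, adjusted p at or under 0.05 over all 9783 genes tested), where 9.14% and 12.2% of all genes tested were called in those directions. The median log2 difference, neonatal over adult, was -0.09 for members and 0.00 for all genes. When sums were scaled by total UMIs alone instead of by TMM, which moves the median of all genes by 0.08, the counts were 17 higher and 16 lower. Without neonatal pool 1 the calls fell to 24, and without neonatal pool 2 to 30. Most cDC1 lay in different clusters at the 2 ages (clusters 0 and 12 in neonatal pools, cluster 13 in adult pools). No member changed as much as 1.5-fold, while 1167 of all genes tested were called at 1.5-fold or more. Members are counted more deeply than most genes, so smaller changes can be called in them. Among genes measured in all 10 classes their median was 98305 UMIs against 3547 for the others. The part of this depth in the counts called, here and in the classes below, was not tested.

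Among the small subunit genes of cDC1, 5 of 31 were higher and 16 lower in neonatal cells. The X-linked Rps4x had the largest change of all: 3604 and 3546 CPM in the neonatal pools and 4499 and 4401 CPM in the adult pools. Its log2 difference was -0.39 ± 0.032 (SE, edgeR adjusted p = 2.91e-18), and both neonatal pools lay below both adult pools. Rps9 stood at 4509 and 4586 CPM in the neonatal pools and 5113 and 4869 CPM in the adult pools, again without overlap, with a log2 difference of -0.21 ± 0.032 (SE, edgeR adjusted p = 6.14e-08). In the other direction, Rps29 stood at 4341 and 4506 CPM in the neonatal pools and 3511 and 3639.7 CPM in the adult pools, a log2 difference of 0.23 ± 0.032 (SE, edgeR adjusted p = 1.25e-08). Rps28 (2503 and 2638 CPM against 2069 and 2115 CPM) and Rps20 (3504 and 3608 CPM against 3049.9 and 2986 CPM) were also higher in neonatal cDC1, by log2 0.22 and 0.16. By contrast, Rps6, the substrate of the S6 kinases, stood at 2384 and 2417 CPM against 2438 and 2348 CPM and was not called (edgeR adjusted p = 0.124).

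Of the 46 large subunit genes tested in cDC1, 4 were higher and 21 lower in neonatal cells. Rpl5 and Rpl11 bind the 5S ribosomal RNA together and can jointly hold Mdm2, the brake on p53. Rpl5 was lower in neonatal cDC1, at 1834 and 1874 CPM in the neonatal pools and 2271 and 2227 CPM in the adult pools (log2 -0.36 ± 0.035 (SE, edgeR adjusted p = 4.73e-14)), whereas Rpl11, at 3908 and 3988 CPM against 3734 and 3645 CPM, was not called (edgeR adjusted p = 0.747). Rpl10, which joins late in the maturation of the large subunit, was lower at 2631 and 2679 CPM in the neonatal pools and 3106 and 2997 CPM in the adult pools (log2 -0.28 ± 0.034 (SE, edgeR adjusted p = 8.18e-11)). Rpl7 and Rpl13 were lower by log2 -0.28 and -0.22, and the pools of these 4 called genes did not overlap between ages.

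The called large subunit genes that were higher in neonatal cDC1 were Rpl41, Rpl38, Rpl35 and Rpl31. Rpl41, which encodes the shortest ribosomal protein, stood at 2141 and 2176 CPM in the neonatal pools and 1646 and 1603 CPM in the adult pools, a log2 difference of 0.33 ± 0.036 (SE, edgeR adjusted p = 2.94e-12). Rpl38, known for its part in the translation of Hox mRNAs, stood at 1847 and 1925 CPM in the neonatal pools and 1461 and 1436 CPM in the adult pools (log2 0.30 ± 0.038 (SE, edgeR adjusted p = 2.53e-10)). Rpl35 stood at 1166 and 1172 CPM in the neonatal pools and 928 and 965 CPM in the adult pools (log2 0.23 ± 0.041 (SE, edgeR adjusted p = 6.12e-06)). In all 3, each neonatal pool lay above each adult pool. The stalk genes split, with Rplp1 lower by log2 -0.20 (edgeR adjusted p = 1.07e-07) and Rplp0 and Rplp2 not called (edgeR adjusted p = 0.484 and 0.876). Adult cDC1 also had more UMIs per cell (medians of 8038 and 8249 against 6705 and 6898), a summed level of 10 classical monocyte markers of 1216 to 1261 CPM against 426 to 445 CPM, and 12 proliferation markers at 218 to 227 CPM against 362 to 447 CPM, with none of either list at 0. Their part in the member differences was not tested.

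In cDC2, the type 2 conventional DC, nearly all called members were lower in neonatal cells: 1 of 77 was higher and 62 lower, where 6.13% and 9.1% of the 7717 genes tested were called in those directions. The median was -0.25 for members and 0.00 for all genes. With total UMIs alone as the scale, which moves the median of all genes by 0.19, the counts were 10 higher and 26 lower. The largest change was in Rpl10, at 2062 and 2029 CPM in the neonatal pools and 2807 and 2658 CPM in the adult pools (log2 -0.60 ± 0.048 (SE, edgeR adjusted p = 1.44e-21)). Rpl9 stood at 2484 and 2441 CPM in the neonatal pools and 3180.0 and 3102 CPM in the adult pools (log2 -0.54 ± 0.046 (SE, edgeR adjusted p = 1.29e-19)) and Rps9 at 4283 and 4315 CPM in the neonatal pools and 5269 and 5222 CPM in the adult pools (log2 -0.47 ± 0.040 (SE, edgeR adjusted p = 7.99e-20)). None of these pools overlapped between ages. Rpl7, Rpl5, Rpl26 and Rps4x followed with log2 differences of -0.49, -0.49, -0.45 and -0.43. The member called higher was Rpl41, at 2561 and 2604 CPM in the neonatal pools and 2070.4 and 2006 CPM in the adult pools (log2 0.16 ± 0.049 (SE, edgeR adjusted p = 0.0163)). Neonatal cDC2 also had 12 proliferation markers at 934 to 1248 CPM against 280 to 305 CPM, and lower UMI medians (6604 to 6852 against 7774 to 8277), and the part of these was not tested.

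Mature DC, the Ccr7-expressing state in which DC leave the tissue for lymph nodes, had the largest age difference of the DC classes. Of 78 members tested, 72 were lower in neonatal cells and 1 higher (background 14.6% and 13.1% of 7642 genes), and the counts were 64 and 1 on total UMIs. The 1 higher call was Rpl39l, which had 0 UMIs in the adult pools and so passed the low count filter through neonatal counts alone. Without it 72 of 77 were lower and the other 5 were not called. The median member difference was -0.56. Rpl5 stood at 1008 and 1062 CPM in the neonatal pools and 2175 and 1839.9 CPM in the adult pools, a log2 difference of -1.08 ± 0.085 (SE, edgeR adjusted p = 1.73e-09). Rpl8, a protein next to the catalytic centre of the ribosome, stood at 1215 and 1314 CPM in the neonatal pools and 2487 and 2320.0 CPM in the adult pools (log2 -1.05 ± 0.078 (SE, edgeR adjusted p = 9.26e-10)), and Rpsa, the laminin receptor precursor of the small subunit, at 3814 and 3944 CPM in the neonatal pools and 6594 and 6975 CPM in the adult pools (log2 -0.93 ± 0.070 (SE, edgeR adjusted p = 9.26e-10)). Adult pools stood above neonatal pools in all 3. Rps6 and Rpl9 were lower by -0.97 and -0.95 on the log2 scale. Rpl39, Rps28, Rpl38, Rps29 and Rpl31 were not called, with log2 differences between -0.18 and -0.11. In the same cells the 10 NK markers, which include Ccl5 of the mature DC list, summed to 11329.6 and 12083 CPM in the neonatal and 6436 and 6828 CPM in the adult pools, with Prf1 at 0, and the 10 classical monocyte markers to 450.2 and 597 against 1532 and 2384 CPM, and their part was not tested.

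This difference rested on 1 cluster of mature DC that was almost wholly neonatal. Cluster 4 held 413 and 391 cells of the neonatal pools and 9 cells of each adult pool. Its leading genes included Fscn1, Ccr7, Tnfrsf4, Il12b and Cacnb3. Members made up 10.1% and 10.2% of its neonatal UMIs, less than in any other cluster of mature DC, and 13.9% and 10.8% in the 9 adult cells of each pool. The 2 larger remaining clusters held 20.2% and 21.2% (cluster 17) and 20.2% and 20.5% (cluster 18) in the neonatal pools, and 19.4% and 18.2%, and 17.8% and 18.1%, in the adult pools. The small cluster 32, with 14 cells in each neonatal pool, held 23.5% and 24.3%. In single cells of cluster 4 the median share was 8.28% and 8.87%. Median UMIs per cell were 3868 and 4135 in cluster 4 against 4918 and 4947.5 in the other mature clusters of the same pools, a difference whose part was not tested.

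Within the neonatal pools, every 1 of the 77 members at or above 20 CPM was lower in cluster 4 than in the other mature DC clusters in both pools, and 39 by at least 1 log2 unit in both (median -1.05). Because the total member share was already lower in cluster 4, most members were bound to be lower there. The matching count over all genes is not given, so the counts are no result about single members. Clusters were drawn from the same cells, so these values are given as a description and without a test. Among the larger differences, Rpl8 stood at 739.5 and 755.8 CPM in cluster 4 against 2510.0 and 2593 CPM in the other mature clusters (log2 -1.77), and Rps2 differed by -1.52. The smallest differences were in Rps27l (665 and 730 CPM in cluster 4 against 722 and 803 CPM, -0.13), Rpl39 (-0.46) and Rps20 (-0.63). Other parts of the translation machinery did not all share the pattern. The elongation factor list, which also holds Tpt1 and Eef1e1, had 0.787% and 0.770% of UMIs in cluster 4 against 1.42% and 1.40%. Mitochondrial ribosomal proteins held 0.219% and 0.222% against 0.372% and 0.378%. Nascent chain factors held 0.470% and 0.488% against 0.459% and 0.492%, and snoRNA host genes 0.219% and 0.206% against 0.130% and 0.145%. In cluster 4 Ccr7 stood at 2807 and 2519 CPM and Fscn1, which bundles actin in mature DC, at 3491 and 3242 CPM against 1152 and 1017 CPM in cluster 17. The chemokine gene Ccl17 stood at 74.3 and 33.7 CPM in cluster 4 against 6580 and 9149 CPM in cluster 17.

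**Figure D2:**
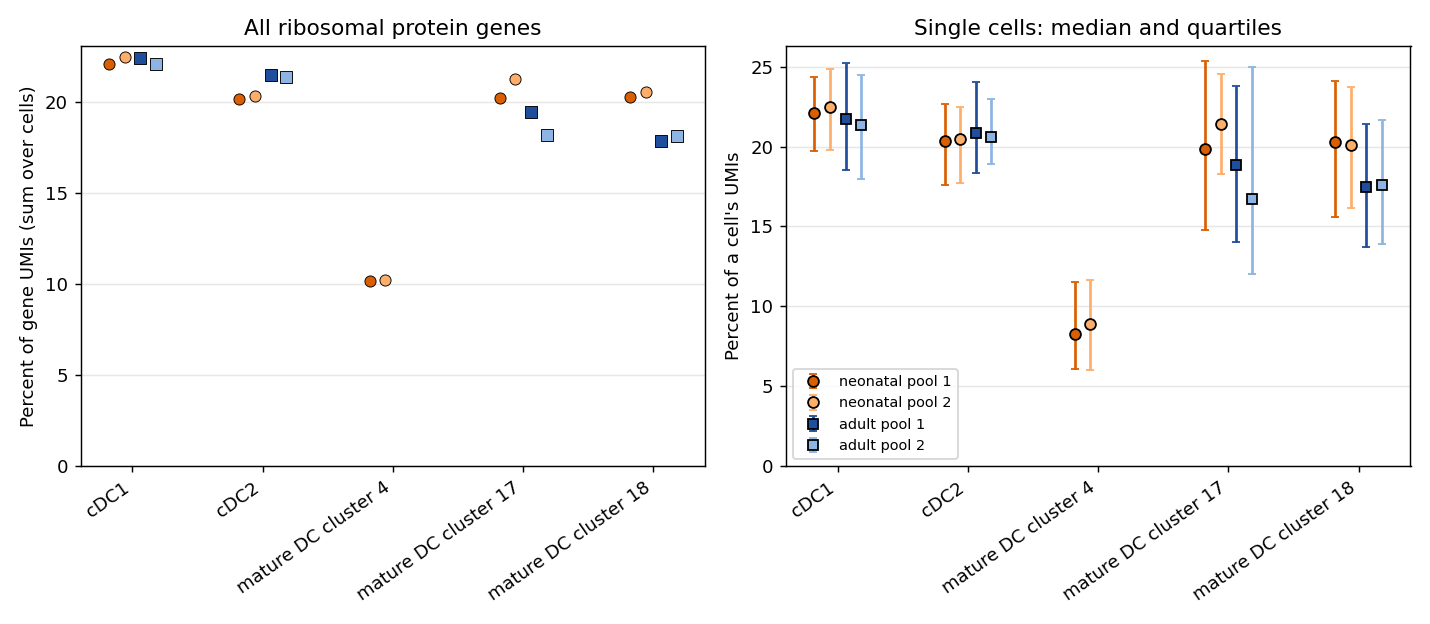
Percent of gene UMIs held by the ribosomal protein genes in the clusters of mature DC, summed over cells with 1 point per pool (left), and in single cells as the median with quartiles (right). Cluster 4 lies at 10.1% and 10.2% in the neonatal pools, below clusters 17 and 18, which lie between 17.8% and 21.2% in all 4 pools.

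Without cluster 4, the remaining mature DC (117 neonatal cells in pool 1 and 132 in pool 2) held 20.4% and 21.1% of UMIs in members against 18.8% and 18.1% in the adult pools, a difference of 2.24 points. Of 78 members, 20 were then higher and 1 lower in neonatal cells (background 2.23% and 3.62% of 5472 genes), the same counts on total UMIs. Rpl39l, again at 0 UMIs in adult cells, is 1 of the 20, and 19 of 77 were higher without it. Leaving out neonatal pool 2 gave 9 calls. Rpl35 stood at 1289 and 1329.9 CPM in the neonatal pools and 835 and 807 CPM in the adult pools (log2 0.66 ± 0.10 (SE, edgeR adjusted p = 0.000855)). Rps26 stood at 2656 and 2719.9 CPM in the neonatal pools and 1909 and 1833 CPM in the adult pools (log2 0.51 ± 0.085 (SE, edgeR adjusted p = 0.00194)), and Rpl31, Rpl38 and Rpl10a were higher by 0.55, 0.52 and 0.52. The member lower in neonatal cells was Rps27l, at 722 and 803 CPM in the neonatal pools and 1061 and 999 CPM in the adult pools (log2 -0.45 ± 0.11 (SE, edgeR adjusted p = 0.0201)). The choice to leave out cluster 4 was made after its values were seen.

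The age difference of cDC1 was set against that of other classes in 1 model with the pool as a block. For 53 of 77 members the neonatal-over-adult difference was more positive in cDC1 than in cDC2 (edgeR, background 4.83% of 9371 genes), and 18 on total UMIs. Rps20 and Rps27 differed most, each by 0.37 on the log2 scale (SE 0.041 and 0.051, edgeR adjusted p = 1.89e-08 and 2.20e-06), followed by Rpl9 with 0.35. Against mature DC, 72 of 78 members were more positive in cDC1 (background 16%), and 27 without neonatal pool 1 and 31 without neonatal pool 2. Rps6 led there with 0.85 ± 0.078 (SE, edgeR adjusted p = 1.31e-24), then Rpsa with 0.83 and Rpl8 with 0.81. Against the mature DC clusters other than cluster 4, 12 of 78 members were more negative in cDC1 and 1 more positive (background 2.81%), with 2, 1 and 8 calls without neonatal pool 1, neonatal pool 2 and adult pool 1. Rpl29, Rpl12 and Rpl36a were the most negative at -0.52, -0.49 and -0.49, and Rps27l the positive one at 0.50 (SE 0.13, edgeR adjusted p = 0.0220).

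Monocytes showed the same direction as cDC2. In nonclassical monocytes, the patrolling type, 70 of 78 members were lower in neonatal cells and the other 8 were not called (background 10% lower and 9.84% higher of 8651 genes), and on total UMIs 60 were lower and 1 higher. Rpl12, a protein at the base of the stalk, stood at 797 and 828 CPM in the neonatal pools and 1231 and 1365 CPM in the adult pools (log2 -0.80 ± 0.058 (SE, edgeR adjusted p = 3.25e-41)). Rps19, the gene most often mutated in Diamond-Blackfan anaemia, stood at 1935 and 1946 CPM in the neonatal pools and 3071 and 2899 CPM in the adult pools (log2 -0.75 ± 0.048 (SE, edgeR adjusted p = 4.86e-51)). Neither overlapped between ages, and Rpl21, Rpl10 and Rps24 followed with -0.70, -0.68 and -0.66. The difference was more positive in cDC1 for 66 of 78 members (background 11.9%), led by Rps19 (0.74), Rps20 (0.71) and Rpl12 (0.67). Most neonatal cells lay in clusters 2, 3 and 10 and most adult cells in cluster 9, and within cluster 9 the share was 15.01% and 13.7% (12 and 18 cells) against 15.996% and 15.97%. The 10 macrophage markers were at 2152 to 2378 CPM in neonatal and 5944 to 6920 CPM in adult nonclassical monocytes, none at 0, and their part was not tested.

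In classical monocytes, the inflammatory type that enters tissue from blood, 70 of 77 members were lower in neonatal cells and the other 7 were not called (background 9.27% lower and 5.01% higher of 7904 genes), and 41 were lower and 1 higher on total UMIs. Rpl10 stood at 2080.1 and 2070.0 CPM in the neonatal pools and 3058 and 3110.4 CPM in the adult pools (log2 -0.75 ± 0.038 (SE, edgeR adjusted p = 7.59e-16)) and Rps9 at 4408 and 4561 CPM in the neonatal pools and 6113 and 6305 CPM in the adult pools (log2 -0.65 ± 0.033 (SE, edgeR adjusted p = 1.17e-15)), both without overlap. Rplp0, Rpl8, Rpl7 and Rps4x were lower by -0.56, -0.56, -0.54 and -0.53. Most neonatal cells lay in cluster 8 and most adult cells in cluster 14, and the share was lower in neonatal cells inside both clusters (17.2% and 17.2% against 21.6% and 19.4% in cluster 8, with 11 and 16 adult cells, and 17.1% and 17.5% against 19.2% and 19.5% in cluster 14, with 8 and 6 neonatal cells).

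Neutrophils changed in both directions. Of 78 members, 18 were higher and 23 lower in neonatal cells (background 15.6% and 15.1% of 5649 genes), with 18 and 27 on total UMIs and 9 and 15 by DESeq2. Rps9 stood at 1912 and 1869.5 CPM in the neonatal pools and 3772 and 3691 CPM in the adult pools (log2 -0.93 ± 0.059 (SE, edgeR adjusted p = 3.04e-12)) and Rpl37 at 516 and 519 CPM in the neonatal pools and 924 and 994 CPM in the adult pools (log2 -0.84 ± 0.080 (SE, edgeR adjusted p = 5.52e-09)). Rpsa went the other way, at 332 and 296 CPM in the neonatal pools and 204 and 183 CPM in the adult pools (log2 0.74 ± 0.11 (SE, edgeR adjusted p = 1.39e-05)), with Rpl10a and Rpl31 higher by 0.83 and 0.82. No pools of these 5 genes overlapped between ages. Rps4x, lower in neonatal cells of 7 other classes, was higher in neonatal neutrophils by 0.53 (edgeR adjusted p = 0.000398). Free RNA from other cells could make up at most 9.24% to 17.1% of the member level in neutrophils, the highest bound of the 9 classes in which one was set (not in classical monocytes, which express the tracer genes), against 0.420% to 1.06% in cDC1. The 13 neutrophil markers summed to 210718 to 215635 CPM in neonatal and 115419 to 126586 CPM in adult cells, with none at 0. The part of both in these differences was not tested. Most neonatal neutrophils lay in clusters 6 and 15 and most adult ones in cluster 1.

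NK cells were the class in which most members were higher in neonatal cells: 55 of 77 (background 5.55% higher and 5.58% lower of 6165 genes), with the other 22 not called, and 58 on total UMIs. Rpl35 stood at 1102 and 1331 CPM in the neonatal pools and 671 and 647 CPM in the adult pools (log2 0.88 ± 0.11 (SE, edgeR adjusted p = 4.75e-06)). Rpl28 stood at 3220.5 and 3319 CPM in the neonatal pools and 1880.0 and 1773 CPM in the adult pools (log2 0.82 ± 0.080 (SE, edgeR adjusted p = 9.82e-08)). Both were without overlap between ages, and Rpl31, Rps26, Rpl41 and Rps20 were higher by 0.83, 0.82, 0.81 and 0.79. Rps24, Rpl19 and Rpl5 were not called, with log2 differences of 0.03 to 0.05. With no filter on low counts 35 members were called. Most neonatal NK cells lay in cluster 23 and most adult ones in cluster 11. The share differed within each cluster, at 23.0% and 23.8% against 19.99% and 19.6% in cluster 23 and at 18.6% and 21.3% (9 and 12 cells) against 17.1% and 17.6% in cluster 11. In the same cells 10 NK markers were at 15804 to 16463 CPM in neonatal and 44402 to 45686 CPM in adult pools, and 10 T cell markers at 1241 to 1578 against 526 to 720 CPM, with Cd4 at 0. Their part was not tested.

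T cells had 35 of 77 members lower in neonatal cells and the other 42 not called (background 3.9% lower and 0.836% higher of 2511 genes), from 38 to 54 cells per pool. On total UMIs 27 were lower and 4 higher, with the pool number as a block 55 were lower and 3 higher, and with predicted doublets kept 5 were lower and 4 higher. Rps24 stood at 8199 and 7516 CPM in the neonatal pools and 11878 and 12383 CPM in the adult pools (log2 -0.80 ± 0.095 (SE, edgeR adjusted p = 1.24e-05)), without overlap, and Rpl5 and Rps27 were lower by -0.79 and -0.78. In mast cells or basophils, with 25 to 113 cells per pool, 17 of 77 members were higher in neonatal cells (background 3.29% higher and 3.95% lower of 2582 genes) and the other 60 were not called. That count was 1 without neonatal pool 1, 6 without neonatal pool 2, 25 on total UMIs and, by DESeq2, 0 with 14 members at an unadjusted p up to 0.05. Rpl31 and Rpl36a led with 0.81 and 0.69 on the log2 scale (edgeR adjusted p = 0.00764 and 0.0194). In macrophages, with 25 to 64 cells per pool, 2 of 77 members were lower in neonatal cells, below the background of 5.37% of 4041 genes in that direction (3.34% were higher): Rpl5 by -0.49 and Rps4x by -0.41 (edgeR adjusted p = 0.0266 and 0.0437). On total UMIs 6 macrophage members were higher and these 2 were not called.

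**Figure D3:**
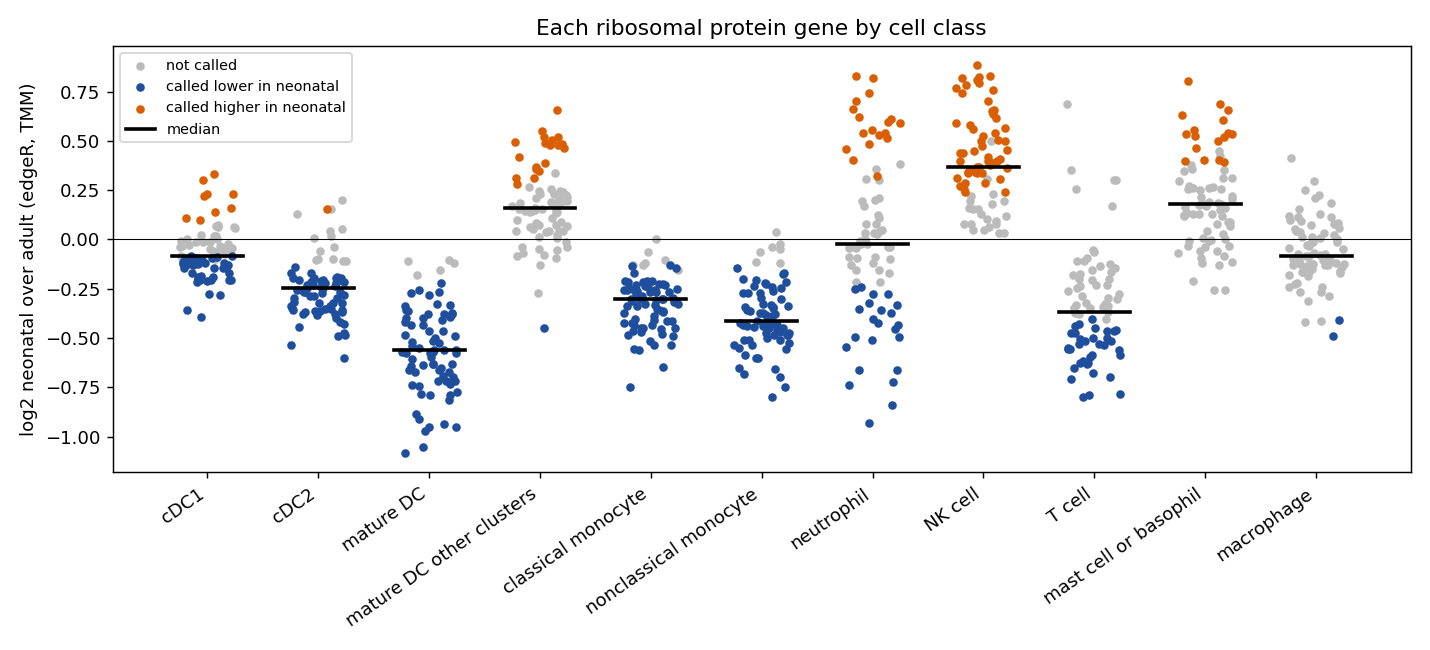
Log2 difference, neonatal over adult, of the ribosomal protein genes in each cell class, apart from the rare Rpl39l and Rpl3l, (edgeR with TMM scaling), with called genes in colour and the median as a bar. The median runs from -0.56 in mature DC, through -0.09 in cDC1 (-0.01 on total UMIs), to 0.37 in NK cells.

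Across the 10 classes, 56 members were called higher in at least 1 class and lower in at least 1 other, which is 72.7% of the 77 members tested in all 10, beside 23.6% of the 1616 genes tested in all 10. On total UMIs the count was 55. Rpl3l was called in none. In the 3 DC classes, 36 of 77 members were lower in neonatal cells of each, beside 3.34% of the 6588 genes tested in all 3. This count rests on the scaling: on total UMIs it was 13 of 77, beside 1.93% of the same genes. Among them were the large subunit genes Rpl3, Rpl5, Rpl6, Rpl7, Rpl7a, Rpl8, Rpl9, Rpl10, Rpl12, Rpl13, Rpl15, Rpl19, Rpl21, Rpl23, Rpl23a, Rpl26, Rpl30, Rpl35a and Rplp1, and the small subunit genes Rps2, Rps3, Rps4x, Rps7, Rps9, Rps12, Rps13, Rps14, Rps15a, Rps16, Rps18, Rps23, Rps24 and Rps25. Pools of the ages did not overlap in CPM for 58 of 77 members in cDC1 and 61 of 77 in cDC2, where 58.8% and 58.2% of all genes tested did not. In mature DC, 72 of 77 did not overlap (background 64.6%), leaving out Rpl39l, which had 0 adult UMIs. In NK cells 73 of 77 did not overlap (background 53.5%), in nonclassical monocytes 71 of 78 (59%), in classical monocytes 69 of 77 (58.6%), in T cells 62 of 77 (49.6%) and in mast cells or basophils 60 of 77 (50.3%). The count was 64 of 78 in neutrophils (64.4%) and 37 of 77 in macrophages (50.8%). In the other mature clusters it was 63 of 77 without Rpl39l (47.2%). These counts are likewise to be read against those backgrounds.

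To set aside the total, each member was also taken as its share of member UMIs. On this scale, which does not depend on the TMM factors, 77 members could be measured in all 10 classes. For 13 members the neonatal pools lay above the adult pools in at least 8 classes, and for 12 they lay below in at least 8, where 4.8% and 1.83% of 2894 other genes, taken as shares of the UMIs of genes that are no members, did. Both scales are centred, so that within each set higher and lower shares balance in sum. The other genes had a median of 3547 UMIs against 98305 for the members, and the part of this depth in the counts was not tested. The classes come from the same 4 pools, so they are not 10 independent samples. Rpl31 was higher in 10 of 10 classes, with a median log2 difference of 0.43 (0.19 to 0.99). In cDC1 it held 0.365% and 0.369% of member UMIs in the neonatal pools and 0.311% and 0.321% in the adult pools, and in neutrophils 0.472% and 0.514% against 0.222% and 0.273%. Rpl38 and Rpl35 (median 0.34 each), Rps26 (0.30), Rps29 and Rps28 (0.27 each) and Rpl11 (0.16) were also higher in 10 of 10 classes. Rpl41 (0.37), Rpl32 (0.21) and Rpl10a (0.18) were higher in 9, and Rps20, Rpl37a and Rpl36 in 8.

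In the other direction, Rpl5 held a lower share in neonatal pools in 9 of 10 classes (median -0.29), with neutrophils at 0.17. In cDC1 it held 0.831% and 0.835% of member UMIs in the neonatal pools and 1.01% and 1.01% in the adult pools. Rps4x was lower in 9 classes (median -0.20) and higher in neutrophils (0.71). Rpl21 (-0.18), Rpl9 (-0.16), Rpl8 (-0.15) and Rpl30 (-0.11) were lower in 9 classes, and Rpl10 (-0.29), Rpl7 (-0.21), Rps9, Rpl13 (-0.13 each), Rps3 (-0.11) and Rps16 (-0.09) in 8. Across the 77 members of cDC1, the fitted age difference correlated with transcript length at Pearson r = -0.246 and Spearman rho = -0.267. Over the 10 classes r ran from -0.291 in macrophages to 0.105 in neutrophils, and rho from -0.369 in mature DC to 0.0438 in neutrophils. Over 8004 other genes of cDC1 within the members' length range rho was 0.0327. Genes of 1 library are not independent replicates, so these are descriptions.

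**Figure D4:**
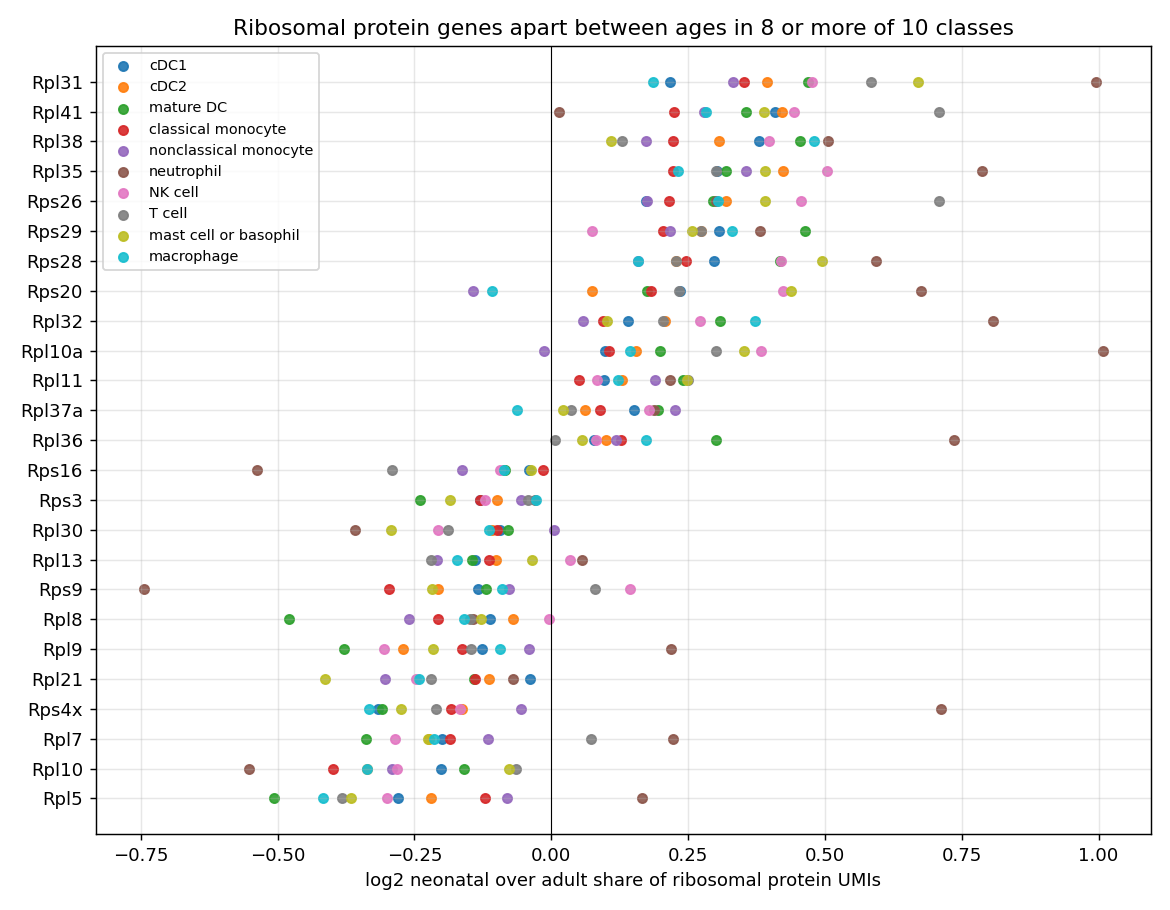
Log2 of the neonatal over the adult share of ribosomal protein UMIs, for the 25 members whose pools did not overlap between ages in at least 8 of 10 classes, with 1 point per class. The scale is the share of member UMIs and uses no TMM factor. Rpl31, with a median of 0.43, lies at 1 end, and Rpl5 and Rpl10, with medians of -0.29, at the other.

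The start sites of the genes that moved most on this scale were read for runs of C and T. A TOP motif lies at the first bases of the mRNA, whereas runs anywhere near the annotated start were taken here. The run of Rpl5 begins at position -20 from that start, and the run of Rpl41 at position 40. The search therefore cannot show whether a gene has a TOP start. RefSeq starts were held for 60 of the 80 members. The 80 bases from 30 before to 50 after the start were searched. An unbroken run of at least 8 C or T bases on the sense strand was in 48 of the 60 members (80%). Such a run was in 32.3% of 27025 genes, 30.4% of 69 mitochondrial ribosomal protein genes and 3 of 6 genes of the elongation factor list. It was in 2 of 8 snoRNA host genes and 7 of 24 initiation factor genes. The sequences are of the 6 members with the largest median difference in each direction among those whose ages did not overlap in at least 8 classes and with a RefSeq start. Each sequence is a 30-base window on GRCm38.p6, 5′ to 3′ on the gene's strand. It holds the longest run of C and T within the 80 bases searched, in capitals.
Higher share in neonatal pools:
Rpl31 (chr1:39367824-39367853, plus strand): ctcgccacaCCTCTTCCTCCTCgcctcccc
Rpl41 (chr10:128549119-128549148, minus strand): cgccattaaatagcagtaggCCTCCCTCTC
Rpl38 (chr11:114668568-114668597, plus strand): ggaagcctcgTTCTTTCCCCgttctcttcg
Rpl35 (chr2:39005115-39005144, minus strand): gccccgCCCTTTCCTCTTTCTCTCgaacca
Rps26 (chr10:128626485-128626514, minus strand): aagccgccggaTCCTCTTTCgagtcttggc
Rps28 (chr17:33824567-33824596, minus strand): tctgtcccgaggaTTCCTgggtaccgcgtg
Lower share in neonatal pools:
Rpl5 (chr5:107900497-107900526, plus strand): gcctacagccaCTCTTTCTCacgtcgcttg
Rpl10 (chrX:74270836-74270865, plus strand): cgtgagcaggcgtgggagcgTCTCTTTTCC
Rps4x (chrX:102189342-102189371, minus strand): cgcgcagcctccgaccctaaTTTCTTCgtt
Rpl9 (chr5:65391383-65391412, minus strand): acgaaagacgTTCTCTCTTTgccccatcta
Rps9 (chr7:3704024-3704053, plus strand): caaccgccttgTCTCTCTTTgtctcgggcc
Rpl13 (chr8:123102324-123102353, plus strand): cgtgacgtcaCTTCCCTTTCgcctgatttt
The runs did not separate the directions. Among those higher, Rpl31 has a run of 13 bases, Rpl41 and Rpl38 of 10, Rpl35 of 18, Rps26 of 9 and Rps28 of 5. Among those lower, Rpl5 and Rps9 have 9, Rpl10, Rpl9 and Rpl13 have 10 and Rps4x has 7. The runs of Rpl41 and Rpl10 reach the last base searched, so 10 is a lower bound for both. Among measured members, the 47 with a run of at least 8 had a median of 0.04 and the 11 with a shorter run 0.01 on the log2 scale of member shares. A match to these letters is a description and not a mapped site.

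The 4 X-linked members are given together because the pools differ in Xist. Rps4x was lower in neonatal cells of cDC1, cDC2, mature DC, both monocyte types, T cells and macrophages (log2 -0.39, -0.43, -0.88, -0.45, -0.53, -0.62 and -0.41) and higher in neutrophils. Rpl10 was lower in 7 classes and not called in NK cells, mast cells or basophils and macrophages (0.09, 0.08 and -0.42). Rpl36a was lower in mature DC and nonclassical monocytes (-0.44 and -0.50) and higher in NK cells and mast cells or basophils (0.65 and 0.69). In cDC1 Rpl36a stood at 798 and 847 CPM against 836 and 775 CPM (edgeR adjusted p = 0.469), and the pools overlapped. Rpl39 was lower in 5 classes, by -0.10 in cDC1 to -0.32 in neutrophils, and higher in NK cells and mast cells or basophils by 0.47 each. So the X-linked members had no common direction, and sex and age cannot be told apart here.

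Some members marked a cell class more than an age. Over the 10 classes, the highest class exceeded the lowest by a median of 1.68-fold in share of member UMIs for the 77 members with over 10000 UMIs, and by 2-fold or more for 24 of them. Neutrophils were the lowest class for 31 members and the highest for 16. In that class free RNA could make up at most 9.24% to 17.1% of the member level, and its part was not tested. No matching count of 2-fold ranges over all genes is given. Rps27l, the p53-induced paralog of Rps27, varied most: it held 0.562% ± 0.0256 (SD, n = 4 pools) of member UMIs in mature DC, 0.295% in macrophages and 0.0379% in T cells, a 14.8-fold range. Rpl12 held 1.89% ± 0.273 (SD, n = 4) in T cells and 0.350% in neutrophils. Rpsa held 3.36% ± 0.504 (SD, n = 4) in mature DC, 2.22% in T cells as the next class, and 0.716% in neutrophils. Rps19 was also highest in mature DC (2.41% ± 0.0667, SD, n = 4). Rps9 and Rps27a, which is made as a fusion with ubiquitin, were highest in neutrophils at 7.57% ± 2.21 and 5.55% ± 0.170 (SD, n = 4). The range was smallest in Rpl23 (1.12-fold) and Rpl11 (1.15-fold).

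Paralogs took different parts of their pair by class. Rps27l counted 45.3, 47.7, 47.7 and 52.4 UMIs per 100 UMIs of Rps27 in mature DC of neonatal pools 1 and 2 and adult pools 1 and 2, and 50.8 and 55.0 in the neonatal cells of cluster 4. In cDC1 it counted 16.5, 17.3, 15.9 and 17.2, with ages overlapping, and in cDC2 30.5, 30.2, 21.4 and 19.3, where neonatal pools were higher. Neutrophils (15.9 and 13.3 against 4.58 and 7.09), NK cells (10.9 and 11.7 against 7.79 and 6.17) and T cells (4.01 and 7.57 against 2.17 and 2.06) also had more Rps27l per Rps27 in neonatal pools. In macrophages the values were 31.9 and 33.3 against 56.9 and 33.5. The gene Rps27l itself was called higher in neonatal neutrophils and NK cells (0.66 and 0.77) and lower in mature DC (-0.67). In cDC2 and T cells it was not called (edgeR adjusted p = 0.137 and 0.273), and in T cells it stood at only 155 against 88.6 CPM (means of 2 pools). Rps27 was called lower in neonatal cDC2, T cells and neutrophils (-0.38, -0.78 and -0.66), so the ratios there moved with Rps27 as well.

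**Figure D5:**
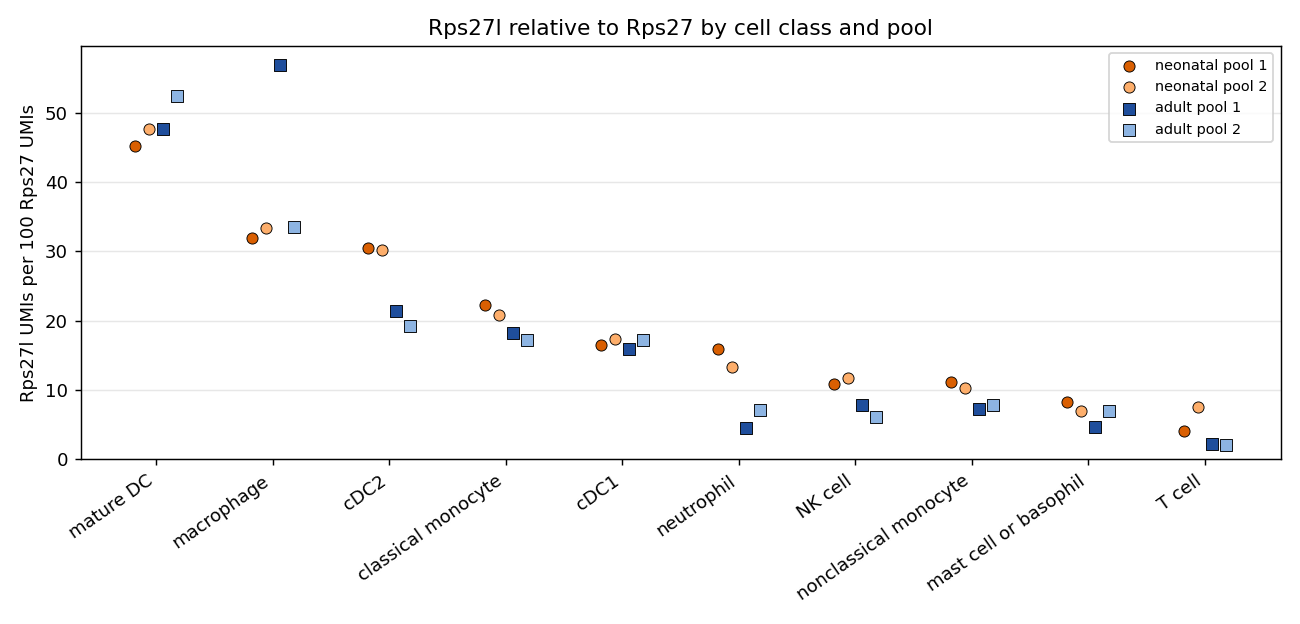
Rps27l UMIs per 100 Rps27 UMIs in each cell class, with 1 point per pool. Mature DC lie highest (45.3 to 52.4) except for 1 adult macrophage pool (56.9), and T cells lie lowest (2.06 to 7.57).

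Rpl22l1 counted 16.97, 14.9, 16.6 and 17.98 UMIs per 100 of Rpl22 in cDC1, and 32.3 and 32.4 in the neonatal cells of mature DC cluster 4 against 14.6 and 17.9 in the other neonatal mature DC. Rpl36al exceeded its partner Rpl36a in cDC1 (121, 114, 108 and 108 per 100) and in classical monocytes (163, 156, 188 and 182 per 100). The copy Rpl9-ps6 counted 0.975, 1.06, 0.901 and 0.878 per 100 of Rpl9 in cDC1. How reads shared between near-identical copies were counted is not given in the sources used here, so the split within these pairs is uncertain.

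The rare paralogs were not spread evenly. Of the 86 UMIs of Rpl39l, 83 came from neonatal cells, where the neonatal pools held 4412 and 4444 of the 12740 kept cells. In mature DC outside cluster 4 there were 33 UMIs (25.3 CPM) in 8 of 249 neonatal cells and 0 in 191 adult cells. Over the adult cells 3 counts would make 2.43 CPM. Because the 33 UMIs lay in 8 cells, they are not independent counts, and no fold between the ages is given. The fitted fold of Rpl39l has no meaning against 0 counts. Rpl3l was at 33.6, 28.9, 32.5 and 35.6 CPM in nonclassical monocytes (95, 94, 27 and 32 UMIs) and at 17.1, 16.9, 10.98 and 16.5 CPM in neutrophils. The ages overlapped in nonclassical monocytes, and in neutrophils both neonatal pools lay above both adult pools, but Rpl3l was not called there (edgeR adjusted p = 0.520). In neutrophils that was 13.5 to 18.8 UMIs per 100 of Rpl3. In cDC1 Rpl3l was at 0.962 and 1.56 CPM in the neonatal pools and had no UMI in the adult pools, and no UMI in T cells.

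The rest of the translation machinery did not follow 1 course. Among components outside the symbol rule, Rps3a1 and Rack1, a scaffold on the small subunit, were lower in neonatal cDC1 (log2 -0.27 and -0.25, edgeR adjusted p = 1.63e-10 and 3.29e-08). The elongation factor list has 8 genes and also holds Tpt1 and Eef1e1. Of these 8 genes, 4 were lower in neonatal cDC1, 3 in cDC2 and 8 in mature DC (median -0.14, -0.11 and -0.74), where 12.2%, 9.1% and 14.6% of all genes tested were lower. Tpt1, a growth-linked TOP mRNA, was at 6736 CPM in neonatal and 8482 CPM in adult cDC1 (mean of 2 pools each, log2 -0.41, edgeR adjusted p = 6.92e-21), and Eef1a1, which brings aminoacyl-tRNA to the ribosome, was lower by log2 -0.28 (edgeR adjusted p = 1.09e-11). Of 30 initiation factors, 8 were higher and 5 lower in neonatal cDC1, and 1 higher and 13 lower in neonatal mature DC (of all genes, 9.14% and 12.2% in cDC1 and 13.1% and 14.6% in mature DC).

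Mitochondrial ribosomal proteins, which build the separate ribosome of mitochondria, were called higher in neonatal cDC1 for 12 of 78 and the other 66 were not called (median 0.09), with Mrpl51, Mrpl33 and Mrps14 at 0.43, 0.37 and 0.36. In mature DC 17 of 74 were lower and 1 higher, again beside 14.6% and 13.1% of all genes. Among 45 ribosome biogenesis factors in cDC1, Ncl (nucleolin) was higher (0.23) and Nop10 and Sbds lower (-0.39 and -0.36), and 42 were not called. Polr2e, a subunit shared by the RNA polymerases, was the 1 called gene of 19 on the RNA polymerase I list (-0.66, edgeR adjusted p = 4.09e-10). Of 10 snoRNA host genes 1 was higher and 3 lower, with Snhg12, Snhg8 and Gas5 at -0.78, -0.33 and -0.21. Of 17 growth signalling genes tested, Eif4ebp2 and Akt1 were higher (0.34 and 0.29) and Rheb lower (-0.27). Of 13 nascent chain and ribosome-associated factors, the chaperone Hspa8 was higher in neonatal cDC1 at 1758 against 1091 CPM (log2 0.60, edgeR adjusted p = 1.11e-21) and Naca lower (-0.14). In the same test 9.14% of all genes were called higher and 12.2% lower.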

How the data were processed

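Single-cell libraries of sorted lung cells from 2 neonatal and 2 adult pools were read from 1 joint matrix. Its values are UMI counts as the authors deposited them, not normalized, per the file headers. The submitters' processing notes name Cell Ranger 6.1.2, Seurat 4.2.0 and the mm10 build. The barcode suffix gives the pool, per the labels, and columns not used came to 0. The members and all gene lists were chosen with earlier results of these data known.

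Of 14710 barcodes, those under 500 genes or 1000 UMIs or over 10% mitochondrial UMIs were dropped, as were predicted doublets (Scrublet in scanpy, 101, 87, 21 and 14 per pool) and 5 barcodes whose other hashtag exceeded 20%. Leiden clustering (resolution 2, 30 components, 15 neighbours, 2000 variable genes per age, without member genes) gave 33 clusters, named where at least 3 markers of a list were detected and led.

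Counts were summed per pool and class (20 or more cells in each pool). Genes passing filterByExpr were scaled by TMM and tested with edgeR 4.0.16 (glmQLFit, robust; R 4.3.3), Benjamini-Hochberg adjusted over all genes tested, threshold 0.05. With 2 pools per age, p-values measure the spread between pools only, and edgeR takes that spread largely from all genes together. A small p-value is therefore no measure of how closely the pools of 1 gene agree. CPM are raw ratios. On simulated counts for cDC1 (9576 genes), 49.0% of 1.5-fold and 76.0% of 2-fold changes were recovered, for mature DC (7379 genes) 25.5% and 51.0%. Alternatives were DESeq2 1.42.0, no low count filter, the pool number as a block, each pool left out, 2000 UMIs, doublets kept and member genes allowed in clustering. Scaling by total UMIs, resolution 1 and mature DC without cluster 4 were added after seeing the data. Floors rest on 3 counts and cover counting error only. Named per class were the 6 members with the largest fold in each direction among called members with 20 CPM or more, paralogs, X-linked members, the 5 highest and lowest, members called alike in the 3 DC classes, the 3 largest interactions and up to 3 genes of each other list by p in cDC1. Other members named with values (Rps6, Rpl11, the stalk genes, members not called) were chosen after their values were seen. Values of some genes that the rule names are not reported here. Coordinates and starts come from RefSeq on GRCm38.p6. Clustering used scanpy 1.11.5 and leidenalg 0.10.2, and the rest Python 3.11.15 with scipy 1.17.1, numpy 2.4.6 and pandas 2.3.3.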

Additional observations from a re-analysis of the deposited data

Results flagged for a closer look

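The age difference of the ribosomal protein genes was not the same in all classes. By the interaction test of edgeR, it differed between cDC1 and cDC2 for 53 of 77 members, beside 4.83% of all genes tested. Between cDC1 and mature DC it differed for 72 of 78 (16% of all genes). Between cDC1 and nonclassical monocytes it differed for 66 of 78 (11.9%). Between cDC1 and the mature DC clusters other than cluster 4 it differed for 13 of 78 (2.81%). On total UMIs the count for cDC1 and cDC2 was 18. The named members with the largest such differences (log2, cDC1 minus the other class) were Rps20 and Rps27 (0.37 each) and Rpl9 (0.35) against cDC2, Rps6 (0.85), Rpsa (0.83) and Rpl8 (0.81) against mature DC, and Rps19 (0.74), Rps20 (0.71) and Rpl12 (0.67) against nonclassical monocytes. Against the other mature clusters they were Rpl29 (-0.52), Rpl12 and Rpl36a (-0.49 each) and Rps27l (0.50).

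In 3 classes the share of member UMIs was higher in neonatal than in adult pools on average, opposite to nonclassical monocytes (-2.71 points): NK cells (5.27 points), mast cells or basophils (2.66) and macrophages (1.05). These differences between classes were not tested.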

How the results depend on the processing

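The cDC1 share difference of all members (0.00991 points) turned to -0.0838 with at least 2000 UMIs per cell, -0.0270 with predicted doublets kept and -0.00295 at resolution 1, and ran from -0.182 to 0.202 over the single pools left out. The large subunit difference in cDC1 became 0.0105 without mitochondrially encoded genes, 0.312 as a mean over cells and 0.0323 with member genes in the clustering, and ran from -0.153 to 0.0824 over the pools left out, and the small subunit difference from -0.0292 to 0.119. Without cluster 4 the mature DC difference became 2.24 (large 1.31, small 0.929).

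Counts of called members left the range within 1.5 times of the reported count as follows. Leaving out 1 pool gave 24 to 46 in cDC1, 0 to 3 in macrophages, 1 to 17 in mast cells or basophils, 9 to 22 in the other mature clusters, and 27 to 72 and 1 to 19 for the cDC1 difference from mature DC and from its other clusters. Total UMIs gave 36 in cDC2, 42 in classical monocytes, 6 in macrophages and 18 for cDC1 minus cDC2. Members lower in all 3 DC classes went from 36 to 13. DESeq2 gave 24 in neutrophils, 10 in the other mature clusters, 0 in macrophages (2 at an unadjusted p up to 0.05) and 0 in mast cells or basophils (14 at that p). Without the low count filter there were 35 in NK cells and 1 in macrophages, and with doublets kept 9 in T cells. The pools of 1 number share only that number: their deviations correlated at -0.114 to 0.104. With the pool number as a block, 58 members were called in T cells and 0 in macrophages (11 at an unadjusted p up to 0.05), and NK cells gave 54, or 50 with the numbers crossed. In macrophages, edgeR gave 0 calls without neonatal pool 1, neonatal pool 2 or adult pool 2, with 1, 3 and 7 members at that unadjusted p. The cause of these changes was not tested.

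Of 1753 values of single genes under alternatives, 1622 kept direction and side of the threshold and 14 reversed. These were, for genes not called: Rps27l in cDC1 (-0.0607 to 0.0791 over the pools left out, -0.0210 with doublets kept), Rps27 in cDC1 (0.00566 unfiltered, 0.0510 on total UMIs), Rpl36a in cDC1 (0.0247 on total UMIs, -0.100 to 0.0111 over the pools left out) and in cDC2 (0.0831 on total UMIs, 0.00891 at resolution 1). In the other mature clusters they were Rps27 (-0.136 to 0.0150) and Rps4x (-0.0150 to 0.0569, and -0.0118 unfiltered) over the pools left out. The called initiation factor gene Eif2s2 went to -0.0763 in cDC1 at resolution 1.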

Other observations

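Further cells entered no test of age, because a pool held under 20 cells or, for cells without a class name, because they join 5 clusters. Innate lymphoid cells had 25.2% and 27.4% in the neonatal pools and 25.3% and 23.2% in the adult pools (19 and 15 cells). Proliferating cDC1 had 18.5% and 18.1% in the neonatal pools (78 and 53 cells) and 13.3% and 19.4% in the adult pools (4 and 6 cells). Cells without a class name had 16.2% and 16.3% in the neonatal pools and 20.4% and 20.7% in the adult pools.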
